A study of Mus musculus with 4 samples.

Results

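The endoplasmic reticulum (ER) secretory machinery considered here is a set of 36 genes for the translocon, signal peptidase, ER chaperones, disulfide isomerases, ER-associated degradation and the sensors of the unfolded protein response. The members were taken by name from the gene columns of the deposited table, and all 36 were found among its 17187 genes. Group 2 innate lymphoid cells (ILC2s), tissue lymphocytes that secrete type 2 cytokines such as IL-5 and IL-13, had been sorted from the lungs of BALB/c mice and kept in culture for 18 h. One group of 2 libraries, anti-CD226, came from cells cultured with an antibody to CD226, a costimulatory receptor of lymphocytes, and the other group of 2 libraries, isotype, from cells cultured with an isotype control antibody. The labels give 5 µg/mL, and their wording leaves unclear whether this dose also holds for the isotype antibody. The design text describes the mice as wild type and as the ones treated, and the table's own treatment column has PBS for the control libraries; the sample labels were followed. Nothing in the labels tells whether a group's libraries stem from different mice or cultures, nor whether animals were pooled, so p-values describe library-to-library spread that could be technical.

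Proteins destined for secretion enter the ER through the Sec61 channel, lose their signal peptide to signal peptidase, and are folded, glycosylated and joined by disulfide bonds before they leave for the Golgi. Chains that fail to fold are sent back to the cytosol and degraded. When unfolded proteins build up, the sensors IRE1 (the product of Ern1), ATF6 and PERK activate a programme of transcription, the unfolded protein response, in which IRE1 splices the mRNA of Xbp1 into the form that encodes an active transcription factor; the same programme is known for its part in cells that secrete large amounts of protein, plasma cells above all.

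The deposited values are a normalised signal per gene, called normalised reads here. Between 73.5% and 75.1% of the values checked in a library were whole multiples of 1 step, which was taken as the worth of 1 read; the others were not, so depths are estimates. The libraries held an estimated 13521426 and 12474184 reads in anti-CD226 replicates 1 and 2, against 12433716 and 17847319 reads in isotype replicates 1 and 2. That step lay between 0.773 and 1.11 normalised reads. The ILC2 genes Gata3, Il1rl1 and Il5 were at 8220 or more normalised reads in each library. Cd226 itself, whose protein the antibody binds, had 1001 and 985 normalised reads in anti-CD226 libraries and 942 and 1042 in isotype libraries.

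No gene of the ER machinery differed between anti-CD226 and isotype libraries past the threshold, which was a Benjamini-Hochberg adjusted p of 0.05 from a limma fit to all genes. All 36 members had a mean of 10 or more and were tested; 0 were called, and 0% of the 13010 genes tested were called. The adjusted p of the members lay between 0.982 and 0.998, and 0.982 was also the smallest of any gene. At an unadjusted p below 0.05 there were 0 members, against 308 genes or 2.37% of all genes tested. On average 17 members were higher and 19 lower in anti-CD226 libraries, and under upper quartile scaling these counts were 15 and 21. The median log2 difference was -0.0019 over the members and 0.0066 over all genes tested. In these libraries, which are bulk samples, fewer cells of a type and less RNA per cell cannot be told apart.

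The width of the intervals sets what size of difference the 4 libraries could show. The 95% interval of the limma fit lay within 1.5-fold in either direction for 22 members and within 2-fold for 33. Over all members the lowest bound was 0.369-fold, that of Sec61g, and the highest was 1.73-fold, that of Ern1. Together the 36 genes took 1.72% and 1.68% of all normalised reads in the anti-CD226 libraries, against 1.76% and 1.70% in the isotype libraries. These shares overlap between the groups.

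**Figure D1:**
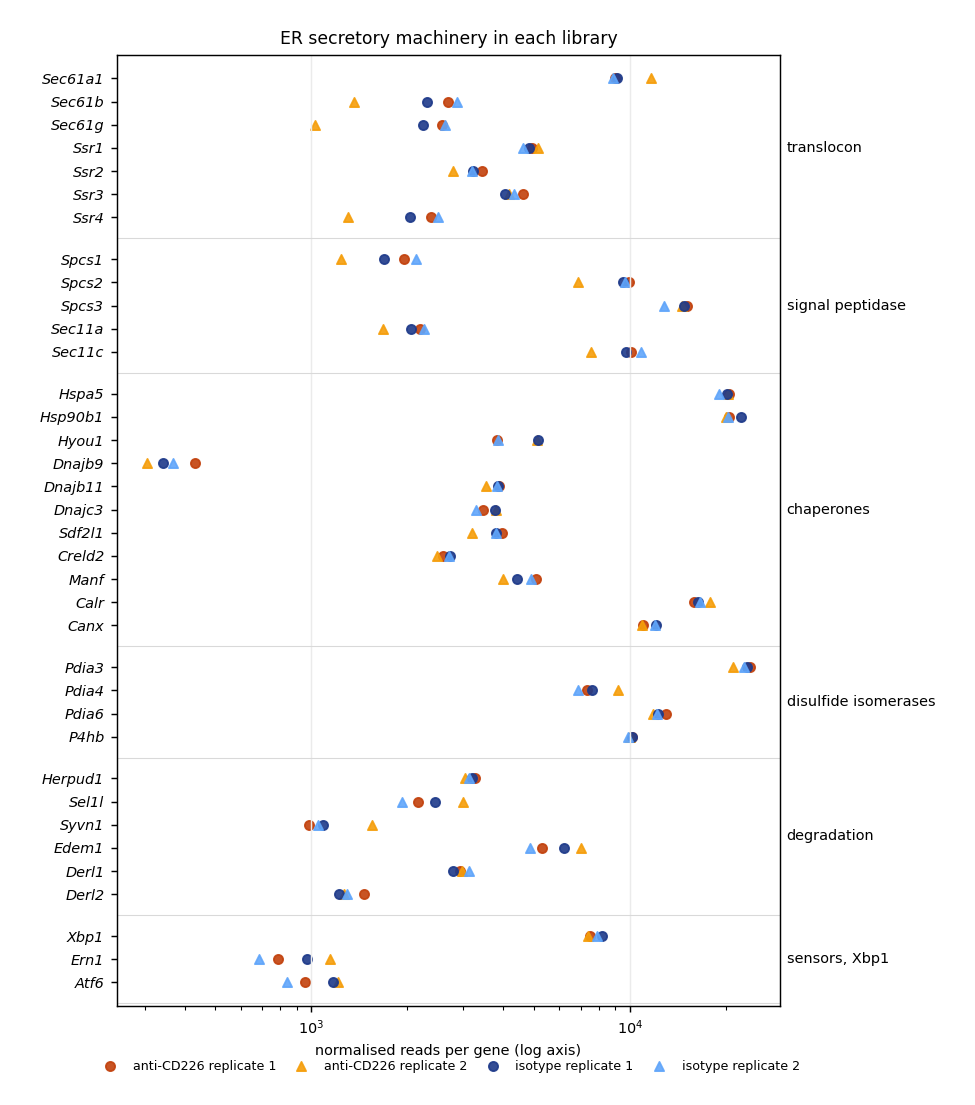
Normalised reads of the 36 genes in each of the 4 libraries, on a log axis, grouped by role; each symbol is 1 library. In most genes the 4 symbols lie close together, while anti-CD226 replicate 2 stands to the left of the others for Sec61b, Sec61g, Ssr4 and Spcs1 and to the right for Syvn1.

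**Figure D2:**
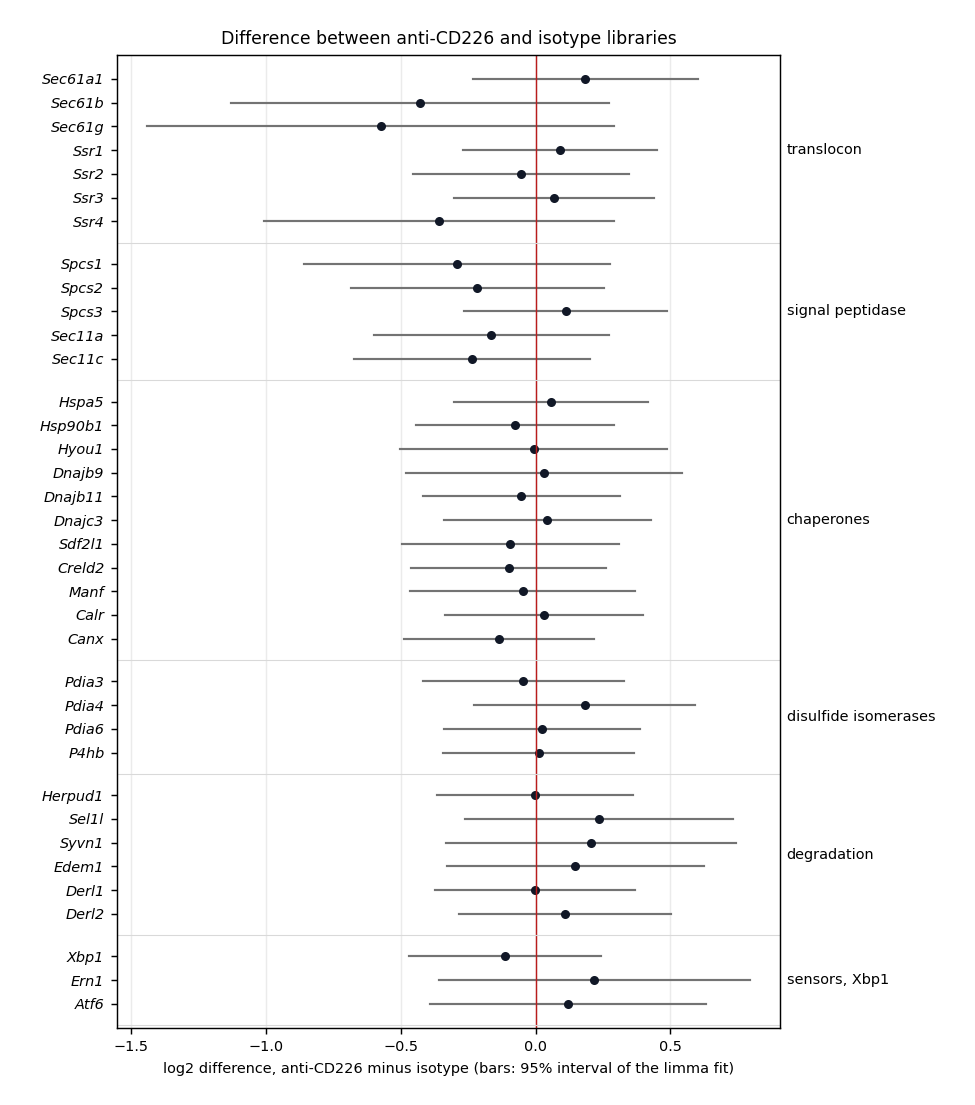
Log2 difference between anti-CD226 and isotype libraries for each gene, with the 95% interval of the limma fit as a bar and no difference as the vertical line. Every interval crosses the line, and the longest are those of Sec61g, Sec61b and Ssr4.

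The groups did not overlap in 5 of the 36 genes (13.9%), against 26.8% of all genes tested. Hspa5 and Ssr1 were higher in both anti-CD226 libraries, against 13.8% of all genes standing apart in that direction. Xbp1, Creld2 and Canx were lower in both, against 13% of all genes. Each of these shares of the members is below that of all genes.

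The 4 libraries were close to each other for most of these genes. The SD of the 4 log2 values had a median of 0.134 over the members, against 0.223 over all genes tested and 0.161 over the 3300 genes with a mean of 1000 or more, a level that 34 members reached. The highest library was less than 1.2 times the lowest for 17 of the 36 members and 1.5 times the lowest or more for 7. Among the 3300 genes with a mean of 1000 or more these shares were 34.4% and 23.6%. The steadiest was P4hb, the classical protein disulfide isomerase, with 10162 and 10002 normalised reads in anti-CD226 libraries against 10153 and 9853 in isotype libraries, a highest value 1.03 times the lowest. At the other end stood Sec61g, whose highest value was 2.55 times its lowest.

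Many promoters of this machinery carry the ER stress response element (ERSE), to which ATF6 and XBP1 bind together with the CCAAT-binding factor NF-Y, or the related ERSE-II. Promoter windows from RefSeq (GRCm38.p6), which run from 250 bases before the annotated start of transcription to 50 bases after it, were matched for 28 of the 36 members; their starts can differ from those of GENCODE, which gives the gene positions below. The ERSE was searched on both strands as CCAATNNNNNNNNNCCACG, and it was found in 8 of the 28 members (28.6%), against 37 of 27025 genes (0.137%). The matches are printed to show the element in the genes that hold it, and capitals mark its fixed letters. The members were chosen by function, as machinery of which many promoters are already known to carry such elements. The shares of the ERSE and the ERSE-II among them are therefore descriptions and no independent result.
Calr, chr8:84847075-84847093, strand opposite to the gene: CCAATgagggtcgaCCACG
Canx, chr11:50325800-50325818, same strand as the gene: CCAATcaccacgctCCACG
Creld2, chr15:88819520-88819538, strand opposite to the gene: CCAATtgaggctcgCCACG
Dnajc3, chr14:118937827-118937845, same strand as the gene: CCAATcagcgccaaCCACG
Hsp90b1, chr10:86705533-86705551, strand opposite to the gene: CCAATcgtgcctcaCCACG
Hsp90b1, chr10:86705638-86705656, same strand as the gene: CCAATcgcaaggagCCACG
Hspa5, chr2:34772025-34772043, same strand as the gene: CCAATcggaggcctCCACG
Pdia6, chr12:17266491-17266509, same strand as the gene: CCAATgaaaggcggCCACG
Syvn1, chr19:6046532-6046550, same strand as the gene: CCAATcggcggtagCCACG
The Hspa5, Pdia6 and Syvn1 elements lie on the strand of their gene, 65 to 47, 98 to 80 and 44 to 26 bases before the start. Hsp90b1 holds a pair of elements, of which the one farther from the start is on its own strand.

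The ERSE-II was searched on both strands as the letters ATTGG and CCACG with 1 base between them. It was found in 2 of the 28 members (7.14%), Dnajb11 and Herpud1, against 12 of 27025 genes (0.0444%). Capitals again mark the fixed letters.
Dnajb11, chr16:22857852-22857862, same strand as the gene: ATTGGcCCACG
Herpud1, chr8:94386377-94386387, same strand as the gene: ATTGGgCCACG
In Herpud1 the match lies 52 to 42 bases before the start, and in Dnajb11 it lies 7 to 17 bases after it. The letters TGACGTGG, the core of the element that XBP1 binds alone, were in 0 of the 28 members, against 0.714% of genes. This says only that these letters are not in the windows read. The CCAAT box alone, which is part of the ERSE and, read on the other strand, of the ERSE-II, was in 75% of the 28 members and in 41.1% of genes. The letters CCACG alone, which end both elements, were in 82.1% of these members and in 35.5% of genes. A match is a description of the letters and shows no binding.

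The whole windows of 4 genes are given, 3 that hold the element and Sec61b, which holds neither element and varied most but for Sec61g. Capitals mark the elements, on whichever strand they were read.
Hspa5, chr2:34771840-34772139, plus strand: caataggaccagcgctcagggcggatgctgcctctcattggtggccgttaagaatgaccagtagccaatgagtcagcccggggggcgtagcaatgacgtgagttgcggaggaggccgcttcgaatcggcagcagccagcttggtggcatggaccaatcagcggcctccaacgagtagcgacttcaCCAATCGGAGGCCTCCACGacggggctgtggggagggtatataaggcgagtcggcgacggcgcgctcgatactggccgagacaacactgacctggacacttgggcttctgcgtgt
Hsp90b1, chr10:86705395-86705694, minus strand: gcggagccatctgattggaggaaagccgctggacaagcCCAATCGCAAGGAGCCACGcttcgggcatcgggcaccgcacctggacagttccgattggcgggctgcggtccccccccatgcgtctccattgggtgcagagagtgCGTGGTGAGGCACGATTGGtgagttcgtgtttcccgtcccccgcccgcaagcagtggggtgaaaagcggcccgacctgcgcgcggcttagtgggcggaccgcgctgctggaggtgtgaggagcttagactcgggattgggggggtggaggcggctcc
Herpud1, chr8:94386179-94386478, plus strand: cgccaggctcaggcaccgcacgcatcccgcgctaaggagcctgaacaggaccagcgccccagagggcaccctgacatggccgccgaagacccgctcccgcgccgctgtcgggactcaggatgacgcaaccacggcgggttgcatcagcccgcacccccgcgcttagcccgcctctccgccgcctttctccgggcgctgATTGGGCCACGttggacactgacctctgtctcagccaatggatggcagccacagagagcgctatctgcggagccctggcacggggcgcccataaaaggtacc
Sec61b, chr4:47474411-47474710, plus strand: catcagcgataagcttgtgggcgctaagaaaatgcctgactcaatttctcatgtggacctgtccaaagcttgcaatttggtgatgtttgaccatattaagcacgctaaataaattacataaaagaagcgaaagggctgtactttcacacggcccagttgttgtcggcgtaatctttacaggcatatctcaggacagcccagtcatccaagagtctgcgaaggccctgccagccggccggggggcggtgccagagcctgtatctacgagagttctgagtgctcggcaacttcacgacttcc
The Hspa5 window holds 4 CCAAT boxes on both strands together and the Sec61b window holds 0.

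Differences between the groups missed the threshold with and without the elements. Among the 8 members with an ERSE the log2 difference between anti-CD226 and isotype libraries ran from -0.14 in Canx to 0.21 in Syvn1, with 5 higher and 3 lower. Among the 18 with a window and neither element it ran from -0.57 in Sec61g to 0.24 in Sel1l, with 9 higher and 9 lower. The SD over the 4 libraries had a median of 0.0714 among those with an ERSE and 0.202 among those with neither. The transcripts of genes with an ERSE had a median length of 2984 bases, from 1366 in Creld2 to 5141 in Dnajc3. Those of genes with neither element had a median of 2616 bases, with a wider range from 564 in Sec61b to 9333 in Ssr1. Length went with the level in anti-CD226 replicate 2, as described further on, so these SDs do not compare genes of like length.

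The sensors of the unfolded protein response were detected in every library. Ern1, which encodes the kinase and nuclease IRE1, lies on chromosome 11 from 106394650 to 106487852 (GRCm38, minus strand) and had 787 and 1142 normalised reads in anti-CD226 libraries against 972 and 683 in isotype libraries. Its means were 964 ± 251 in anti-CD226 and 828 ± 205 in isotype libraries (SD, n = 2 each), a log2 difference of 0.22 with a standard error of 0.25. In order of level the libraries of the groups alternated, so the groups overlapped.

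Atf6, a membrane-bound transcription factor that is cut free in the Golgi, had 954 and 1213 normalised reads in anti-CD226 libraries against 1167 and 839 in isotype libraries (log2 difference 0.12, standard error 0.22). Its libraries stood in the same order as those of Ern1, and the ratio of Ern1 to Atf6 reads was 0.824 and 0.941 in anti-CD226 libraries against 0.833 and 0.814 in isotype libraries.

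Xbp1, on chromosome 11 from 5520659 to 5525893 (plus strand), was the most abundant of these 3 genes per kilobase. It had 7472 and 7411 normalised reads in anti-CD226 libraries against 8198 and 7892 in isotype libraries. Both anti-CD226 libraries were below both isotype libraries, by a log2 difference of -0.11 with a standard error of 0.15 (limma, unadjusted p = 0.48). Per kilobase of annotated transcript Xbp1 averaged a level of 3637 normalised reads over the 4 libraries, Atf6 144 and Ern1 129. A value per gene does not separate the spliced from the unspliced Xbp1 mRNA, so these levels say nothing of IRE1 activity.

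Several ER chaperones were among the most abundant transcripts of these cells: by level per kilobase Calr ranked 103rd, Hsp90b1 108th and Hspa5 138th of the 12737 genes tested that had a length. Hspa5, which encodes BiP, the Hsp70 chaperone that also holds the sensors inactive, lies on chromosome 2 from 34771970 to 34777547 (plus strand). It had 20441 and 20280 normalised reads in anti-CD226 libraries against 20124 and 19013 in isotype libraries. The anti-CD226 libraries stood just above both isotype libraries, with a log2 difference of 0.06, a standard error of 0.15 and an interval from 0.812-fold to 1.33-fold. Hsp90b1, the ER form of Hsp90 and a chaperone of integrins and Toll-like receptors, had 20440 and 19987 normalised reads in anti-CD226 libraries against 22380 and 20290 in isotype libraries. Within each library the ratio of Hsp90b1 to Hspa5 was 1.0 and 0.986 in anti-CD226 libraries, below the 1.11 and 1.07 of isotype libraries. Ratios were formed for picked pairs only, and how often other pairs stand apart was not computed, so the ratios here are descriptions.

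The lectin chaperones Calr (calreticulin) and Canx (calnexin) hold glycoproteins while they fold. Calr had the highest level per kilobase among the chaperones, 7643 on average, and had 15932 and 17834 normalised reads in anti-CD226 libraries against 16423 and 16580 in isotype libraries. The isotype values lay between those of the anti-CD226 libraries. Canx had 10982 and 10890 normalised reads in anti-CD226 libraries against 12067 and 11952 in isotype libraries. Its groups stood apart by a log2 difference of -0.14 (standard error 0.15, limma unadjusted p = 0.40). Once the dependence on transcript length was taken out of each library the difference was -0.23, and Canx was still not called. The ratio of Canx to Calr reads was 0.689 and 0.611 in anti-CD226 libraries, against 0.735 and 0.721 in isotype libraries. GENCODE annotates a pseudogene named after Calr, and reads that fit both cannot be told apart here.

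Creld2, an ER protein with disulfide isomerase activity that is induced by ER stress, also stood apart. Of the other chaperone-class genes Canx did so in the same direction and Hspa5 in the opposite one. Creld2 had 2586 and 2482 normalised reads in anti-CD226 libraries against 2732 and 2697 in isotype libraries (log2 difference -0.10, standard error 0.16). Once the dependence on transcript length was taken out of each library the difference was 0.012. Sdf2l1, which works with the BiP cochaperone encoded by Dnajb11, had 3979 and 3197 normalised reads in anti-CD226 libraries against 3807 and 3808 in isotype libraries. Its isotype libraries were nearly equal and lay inside the range of the anti-CD226 pair.

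The remaining chaperones and cochaperones overlapped between the groups. Hyou1, an ER relative of Hsp70 that acts as exchange factor for BiP, had 3833 and 5126 normalised reads in anti-CD226 libraries against 5132 and 3866 in isotype libraries, so that 1 library of each group was high and 1 low. Manf, a small secreted protein retained in the ER that binds BiP, had 5077 and 3996 in anti-CD226 libraries against 4434 and 4882 in isotype libraries. The cochaperones of BiP with a J domain differed widely in level: Dnajb11 averaged 1962 normalised reads per kilobase, Dnajc3 697 and Dnajb9 147. Dnajb11 had 3881 and 3544 normalised reads in anti-CD226 libraries against 3868 and 3829 in isotype libraries, and Dnajc3 had 3468 and 3808 in anti-CD226 libraries against 3772 and 3294 in isotype libraries. Dnajb9, which encodes ERdj4, a repressor of IRE1, had 432 and 305 in anti-CD226 libraries against 342 and 369 in isotype libraries. Manf overlaps Dcaf1 and Rbm15b in the annotation, so part of its reads may belong to those genes.

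Disulfide isomerases form and rearrange the disulfide bonds of secreted proteins. Pdia3, which works on glycoproteins bound to calnexin and calreticulin, had the highest level of the 4 per kilobase, 8213 on average, and ranked 91st of the 12737 genes by that measure. It had 23806 and 21032 normalised reads in anti-CD226 libraries against 23266 and 22897 in isotype libraries, and the isotype values lay between the anti-CD226 ones. Pdia4, a multidomain isomerase, had 7346 and 9191 normalised reads in anti-CD226 libraries against 7629 and 6878 in isotype libraries (log2 difference 0.18, standard error 0.18; limma, unadjusted p = 0.34). Pdia6, which also turns off active IRE1, had 13005 and 11796 in anti-CD226 libraries against 12219 and 12125 in isotype libraries, a log2 difference of 0.03 that was -0.00073 under upper quartile scaling. None of the 4 isomerases stood apart between the groups, and the ratio of Pdia3 to P4hb was 2.34 and 2.10 in anti-CD226 libraries against 2.29 and 2.32 in isotype libraries.

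The translocon held the members that varied most. Sec61a1, which encodes the channel-forming subunit, lies on chromosome 6 from 88503579 to 88518905 (minus strand) and had 8964 and 11644 normalised reads in anti-CD226 libraries against 9129 and 8850 in isotype libraries. Only anti-CD226 replicate 2 stood off, above the other 3 libraries. The small subunits of the channel went the opposite way in that library. Sec61b, on chromosome 4 from 47474658 to 47483242 (plus strand), had 2683 and 1364 normalised reads in anti-CD226 libraries against 2305 and 2876 in isotype libraries. Sec61g, on chromosome 11 from 16500530 to 16508484 (minus strand), had 2574 and 1031 in anti-CD226 libraries against 2240 and 2626 in isotype libraries. In both genes anti-CD226 replicate 2 was far below the other libraries, while anti-CD226 replicate 1 lay within the isotype range.

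With both libraries of each group the translocon differences missed the threshold. Sec61g averaged 1802 ± 1091 in anti-CD226 and 2433 ± 273 in isotype libraries (SD, n = 2 each), a log2 difference of -0.57 with a standard error of 0.37. Sec61b averaged 2024 ± 932 in anti-CD226 and 2590 ± 403 in isotype libraries, a log2 difference of -0.43 with a standard error of 0.30 (limma, unadjusted p = 0.16 for Sec61g and 0.20 for Sec61b). Sec61a1 had a log2 difference of 0.18 with a standard error of 0.18. The products of these genes form 1 complex in equal numbers. The ratio of their reads, which compares libraries and not the levels of the genes, was for Sec61b over Sec61a1 0.299 and 0.117 in anti-CD226 libraries against 0.253 and 0.325 in isotype libraries. For Sec61g over Sec61a1 it was 0.287 and 0.0885 in anti-CD226 libraries against 0.245 and 0.297 in isotype libraries.

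The translocon-associated (TRAP) complex, which helps some chains to enter the channel, is encoded by Ssr1 to Ssr4. Ssr4, on the X chromosome from 73787028 to 73790830 (plus strand), had 2380 and 1302 normalised reads in anti-CD226 libraries against 2037 and 2498 in isotype libraries (log2 difference -0.36, standard error 0.28). As with the small Sec61 subunits, only anti-CD226 replicate 2 stood below the isotype range. Ssr2 and Ssr3 overlapped between the groups, Ssr2 with 3435 and 2780 normalised reads in anti-CD226 libraries against 3227 and 3196 in isotype libraries, and Ssr3 with 4632 and 4173 in anti-CD226 libraries against 4063 and 4335 in isotype libraries. Ssr1 had 4917 and 5147 normalised reads in anti-CD226 libraries against 4825 and 4620 in isotype libraries. Its groups stood apart by a log2 difference of 0.09 (standard error 0.15), which was -0.11 once the dependence on transcript length was taken out.

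Signal peptidase is a small complex in which Sec11a and Sec11c are alternative catalytic subunits and Spcs1, Spcs2 and Spcs3 are accessory ones. Sec11c, on chromosome 18 from 65800515 to 65817684 (plus strand), had the highest level per kilobase of all 36 genes, 11108 on average, and ranked 51st of the 12737 genes tested with a length. It had 10067 and 7564 normalised reads in anti-CD226 libraries against 9725 and 10857 in isotype libraries (log2 difference -0.24, standard error 0.19). Sec11a averaged 1522 normalised reads per kilobase, with 2199 and 1680 in anti-CD226 libraries against 2051 and 2260 in isotype libraries. The ratio of Sec11c to Sec11a reads was nearly the same in all libraries, 4.58 and 4.50 in anti-CD226 against 4.74 and 4.80 in isotype libraries.

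The accessory subunits overlapped between the groups too. Spcs1, on chromosome 14 from 30999826 to 31001672 (minus strand), had 1956 and 1236 normalised reads in anti-CD226 libraries against 1697 and 2131 in isotype libraries (log2 difference -0.29, standard error 0.24). Spcs2 had 9910 and 6871 in anti-CD226 libraries against 9491 and 9673 in isotype libraries (log2 difference -0.22, standard error 0.20). In both, anti-CD226 replicate 2 was the lowest library. Spcs3, by contrast, had 15136 and 14602 in anti-CD226 libraries against 14765 and 12830 in isotype libraries, and its lowest library was isotype replicate 2. Spcs1 overlaps Glt8d1 on the other strand, a gene at 170 to 210 normalised reads, and a pseudogene named after Spcs2 is annotated.

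ER-associated degradation takes misfolded chains out of the ER for destruction by the proteasome. Sel1l and Syvn1 encode the adaptor and the ubiquitin ligase (HRD1) of its main complex. Sel1l had 2166 and 2998 normalised reads in anti-CD226 libraries against 2441 and 1920 in isotype libraries (log2 difference 0.24, standard error 0.21). Syvn1, on chromosome 19 from 6046576 to 6053712 (plus strand), had 982 and 1549 in anti-CD226 libraries against 1086 and 1051 in isotype libraries (log2 difference 0.21, standard error 0.23). Anti-CD226 replicate 2 was the highest library for both, and anti-CD226 replicate 1 the lowest for Syvn1. Mrpl49 overlaps Syvn1 on the other strand, with 1004 and 705 normalised reads in anti-CD226 libraries against 925 and 987 in isotype libraries, so the reads of this pair are uncertain.

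Edem1, a lectin-like protein that hands misfolded glycoproteins to that complex, had 5286 and 7026 normalised reads in anti-CD226 libraries against 6212 and 4871 in isotype libraries (log2 difference 0.15, standard error 0.20). Herpud1, an adaptor of the complex that is strongly induced by ER stress, had the highest level per kilobase of this role, 1617. It had 3261 and 3047 in anti-CD226 libraries against 3195 and 3120 in isotype libraries, a spread of 1.07 times from lowest to highest. The derlins, membrane proteins of the exit route, varied by 1.12 and 1.19 times. Derl1 had 2933 and 2972 normalised reads in anti-CD226 libraries against 2791 and 3131 in isotype libraries, and Derl2 had 1460 and 1266 in anti-CD226 libraries against 1223 and 1298 in isotype libraries. Mis12 overlaps Derl2 on the other strand, with 983 and 1012 normalised reads in anti-CD226 libraries against 1040 and 972 in isotype libraries. The reads of Derl2 and Mis12 are therefore uncertain.

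Anti-CD226 replicate 2 was the lowest or the highest library for 29 of the 36 genes, the lowest for 19 and the highest for 10. Over all genes tested it was so for 74.2%. The direction went with the length of the transcript. Against the mean of the isotype libraries on the log2 scale, the 9 members with transcripts under 1500 bases had a median of -0.44 in anti-CD226 replicate 2, and all 9 were below 0, from -1.23 in Sec61g to -0.13 in Creld2. The 19 members between 1500 and 4000 bases had a median of -0.0084 and went both ways, from -0.48 in Spcs2 to 0.54 in Syvn1. The 8 of 4000 bases or more had a median of 0.25, from -0.14 in Canx to 0.49 in Ern1. All genes tested had medians of -0.37, 0.0072 and 0.33 in the same length classes.

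In anti-CD226 replicate 1 the same medians were 0.059, 0.045 and -0.052 for the members. Spearman's rho between transcript length and the difference from the isotype mean, across the 36 genes, was 0.80 for anti-CD226 replicate 2 and -0.30 for replicate 1 of that group, and across all genes with a length it was 0.53 and -0.09. Genes are not independent replicates, and the differences share the isotype libraries and the depth of each library, so these are descriptions.

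**Figure D3:**
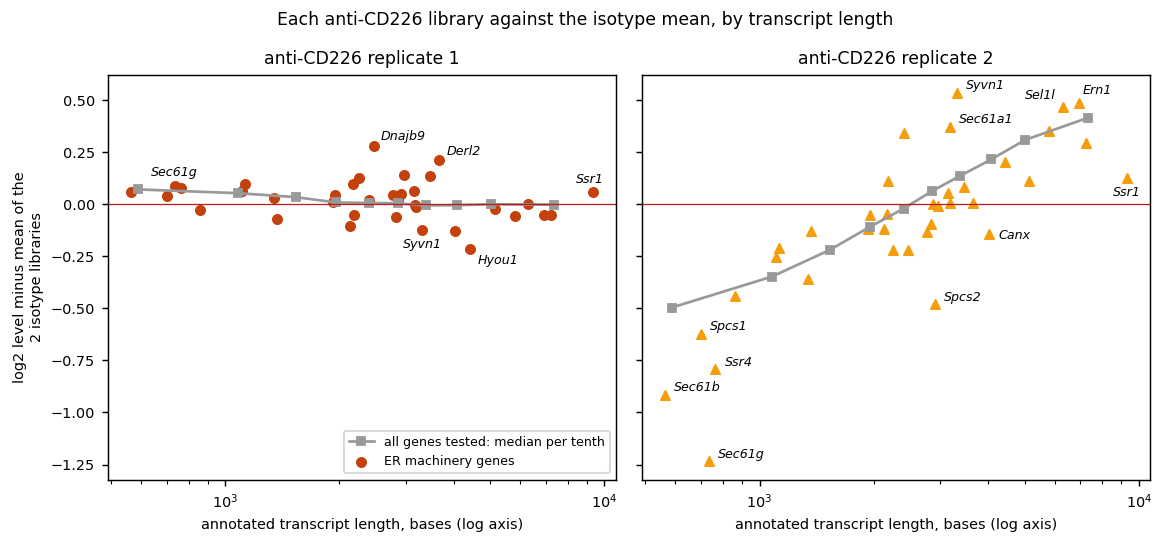
Log2 level of each gene in anti-CD226 replicate 1 (left) and 2 (right) minus the mean of the isotype libraries, against annotated transcript length on a log axis; the grey line joins the medians of all genes tested, split by length into 10 equal sets. In replicate 2 the line runs from -0.50 in the set of shortest transcripts to 0.42 in that of the longest, and Sec61g, Sec61b, Ssr4 and Spcs1 lie below it; in replicate 1 the line stays near 0.

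The calls depended on which anti-CD226 library was kept. Without anti-CD226 replicate 1 the fit called 1633 genes, 12.6% of those tested, and 5 of the 36 members (13.9%), a share close to that background. In that fit the lone anti-CD226 library is assumed to vary like the isotype libraries. Sec61g (log2 difference -1.23), Sec61b (-0.92), Ssr4 (-0.79) and Spcs1 (-0.62) were called lower and Syvn1 (0.54) higher, with limma adjusted p from 2.77e-06 for Sec61g to 0.037 for Syvn1. Without anti-CD226 replicate 2 instead, the same 5 genes had log2 differences of 0.086, 0.059, 0.078, 0.040 and -0.12, and 0 members were called. With all 4 libraries and the length trend of each library removed, they had -0.38, -0.20, -0.17, -0.089 and 0.15, and again 0 members were called.

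**Figure D4:**
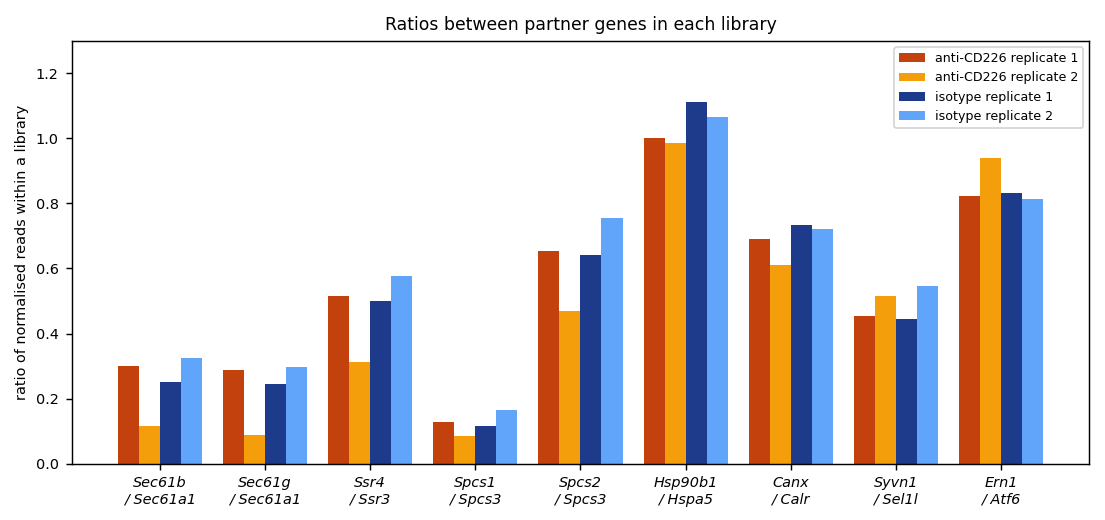
Ratio of normalised reads of partner genes within each library, as bars from 0, with the anti-CD226 libraries left of the isotype libraries in each set. The ratios of Sec61b and Sec61g to Sec61a1 are lowest in anti-CD226 replicate 2, at 0.117 and 0.0885, and the ratio of Hsp90b1 to Hspa5 lies between 0.986 and 1.11 in all 4 libraries.

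The share of reads that each role took overlapped between the groups. Signal peptidase genes, with a median length of 1345 bases, took 0.282% and 0.232% of all normalised reads in anti-CD226 libraries against 0.275% and 0.274% in isotype libraries. Genes of ER-associated degradation, with a median length of 3489 bases, took 0.116% and 0.137% in anti-CD226 libraries against 0.123% and 0.112% in isotype libraries. Anti-CD226 replicate 2 was the lowest library for signal peptidase and the highest for degradation. The sensors with Xbp1 took 0.0662% and 0.0710% in anti-CD226 libraries against 0.0752% and 0.0683% in isotype libraries. The disulfide isomerases took 0.390% and 0.378% in anti-CD226 libraries against 0.388% and 0.375% in isotype libraries. The chaperones had the largest share of reads, 0.654% and 0.665% in anti-CD226 libraries against 0.692% and 0.657% in isotype libraries. The groups overlapped in each of the 6 roles.

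Among other genes of the secretory pathway no gene was called either. Of the 121 genes tested on 7 lists, 69 were higher and 52 lower in anti-CD226 libraries, 0 were called over all genes, and 3 had an unadjusted p below 0.05 (2.48%, against 2.37% of all genes). The median log2 difference of the 121 genes was 0.04, and the groups stood apart in 37 of them (30.6%, against 26.8%).

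Oligosaccharyltransferase, which attaches glycans to chains as they enter, and the enzymes that trim those glycans gave 9 higher and 9 lower of 18 genes, and 0 were called. Stt3b, a catalytic subunit, had 9406 and 9301 normalised reads in anti-CD226 libraries against 7710 and 6656 in isotype libraries. Its libraries were close within each group and the groups stood apart, with a log2 difference of 0.38 and a standard error of 0.16 (limma, unadjusted p = 0.045, adjusted p = 0.98). Tusc3, an accessory subunit, had 1445 ± 153 in anti-CD226 and 1645 ± 31.9 in isotype libraries (SD, n = 2 each). Uggt1, which senses the folding of glycoproteins, had 3799 ± 942 in anti-CD226 and 3227 ± 593 in isotype libraries.

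Transport from the ER to the Golgi gave 14 higher and 11 lower of 25 genes, and 0 were called. Tmed9, a cargo receptor, had 3351 and 1504 normalised reads in anti-CD226 libraries against 3761 and 4231 in isotype libraries (log2 difference -0.83, standard error 0.33; limma, unadjusted p = 0.038, adjusted p = 0.98). Both anti-CD226 libraries were below both isotype libraries, and anti-CD226 replicate 2 was by far the lowest. The annotated transcript of Tmed9 is 1420 bases long. In anti-CD226 replicate 2 Tmed9 stood at -1.41 on the log2 scale against the isotype mean. All genes tested with transcripts under 1500 bases had a median of -0.37 there. The part of length in the Tmed9 difference was not tested. Sar1b, the small GTPase of the COPII coat, had 951 ± 286 in anti-CD226 and 1159 ± 0.177 in isotype libraries, an isotype SD below the estimated worth of 1 read. Mcfd2, a partner of the cargo receptor LMAN1, had 553 ± 105 in anti-CD226 and 681 ± 25.6 in isotype libraries.

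The signal recognition particle and targeting genes gave 11 higher and 4 lower of 15, and 0 were called. Srp14 had 1537 ± 551 in anti-CD226 and 1947 ± 108 in isotype libraries, and Srp19 had 1990 ± 422 in anti-CD226 and 2398 ± 292 in isotype libraries; both encode proteins of the particle. Tram2, a membrane protein that acts at the translocon, had 181 ± 62.2 in anti-CD226 and 139 ± 11.6 in isotype libraries. Srp54a, Srp54b and Srp54c are near-identical copies, and how reads were shared among them is uncertain.

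The list of other folding factors and oxidases had 13 higher and 9 lower of 22 genes, with 0 called. Sdf2, a relative of Sdf2l1, had 432 ± 118 in anti-CD226 and 587 ± 74.8 in isotype libraries, Pdia5 had 85.5 ± 13.1 in anti-CD226 and 115 ± 7.59 in isotype libraries, and the oxidase Ero1lb had 572 ± 58.1 in anti-CD226 and 455 ± 17.7 in isotype libraries. Ero1l, the oxidase that passes disulfide bonds to the isomerases, was picked out after its values were seen because its level per kilobase, 9321 on average, exceeded that of every member but Sec11c. It had 38210 and 50242 normalised reads in anti-CD226 libraries against 40520 and 35758 in isotype libraries, groups that overlapped (log2 difference 0.20, standard error 0.19).

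The PERK branch, the arm of the unfolded protein response that acts through the transcription factor ATF4, had 4 higher and 7 lower of 11 genes, with 0 called. Atf4 had 4123 and 2470 normalised reads in anti-CD226 libraries against 3757 and 4172 in isotype libraries (log2 difference -0.31, standard error 0.25). Chac1, a target of ATF4 that degrades glutathione, had 298 ± 16.5 in anti-CD226 and 340 ± 4.25 in isotype libraries, and the adaptor Nck1 had 512 and 370 normalised reads in anti-CD226 libraries against 518 and 489 in isotype libraries. The only gene of this branch with an unadjusted p below 0.05 was Atf5, a related factor named here after its values were seen, with 9.27 and 13.2 normalised reads in anti-CD226 libraries against 27.6 and 31.7 in isotype libraries (limma, unadjusted p = 0.021, adjusted p = 0.98). Its values rest on few reads.

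Other regulators of the response had 8 higher and 3 lower of 11 genes, with 0 called. Tmbim6, a membrane protein that restrains IRE1, had 3373 and 2726 normalised reads in anti-CD226 libraries against 3689 and 3827 in isotype libraries, groups that stood apart by a log2 difference of -0.31 (standard error 0.17; limma, unadjusted p = 0.11). Creb3l2, a sensor related to ATF6, had 1909 ± 477 in anti-CD226 and 1428 ± 318 in isotype libraries, and the deubiquitinase Yod1 had 222 ± 25.7 in anti-CD226 and 172 ± 30.9 in isotype libraries. Further genes of ER-associated degradation had 10 higher and 9 lower of 19, with 0 called. The lectin Os9 had 3281 and 3349 normalised reads in anti-CD226 libraries against 2977 and 2763 in isotype libraries, Ufd1 had 1006 ± 156 in anti-CD226 and 1171 ± 13.0 in isotype libraries, and Ubxn6 had 387 ± 25.5 in anti-CD226 and 461 ± 34.1 in isotype libraries; the last pair act with the ATPase p97 on extracted chains.

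The labelled cell type was checked against the genes that define it. All 12 ILC2 markers had a column, and their summed level was 170399 and 147780 normalised reads in anti-CD226 libraries against 176059 and 180881 in isotype libraries. Both anti-CD226 sums were below both isotype sums. Of the 12 genes 6 were higher and 6 lower, with log2 differences from -0.96 to 0.34, and 0 were called. The groups stood apart in 7 of the 12, against 26.8% of all genes tested. Plasma cells, the textbook user of this machinery, were checked by their own markers. Of 11 markers of B cells and plasma cells 5 matched a column, and Sdc1 was at 10.0 or less and Ighm at 29.9 or less in every library. Their sum was 2878 and 3529 in anti-CD226 libraries against 3090 and 2570 in isotype libraries, carried by Prdm1 and Irf4, which plasma cells share with other lymphocytes. The macrophage markers, of which 9 of 10 matched a column, summed to 413 and 1204 normalised reads in anti-CD226 libraries against 269 and 290 in isotype libraries, with Chil3 at 784 in anti-CD226 replicate 2 and Mpeg1 at 0 in both isotype libraries. Markers of mast cells and basophils (7 of 8 matched) summed to 120 and 186 normalised reads in anti-CD226 libraries against 217 and 212 in isotype libraries. At an unadjusted limma p below 0.05 there were 3 of 5 macrophage genes tested, all higher in anti-CD226 libraries. Of the 5 mast cell and basophil genes tested there were 3, with 1 higher and 2 lower. The share over all genes tested was 2.37%, and 0 genes of either list were called. Those of T cells (5 of 8) summed to between 314 and 396 in anti-CD226 libraries and between 377 and 409 in isotype libraries. Cd3d and Trac were at 5.53 or less, so these sums were carried by the other matched T cell markers, Cd3e, Cd3g and Cd28. Those of natural killer cells (2 of 6), lung epithelium (6 of 7), endothelium (1 of 4) and fibroblasts (1 of 5) summed to at most 668 in anti-CD226 and 726 in isotype libraries. The largest of these sums was the endothelium marker Pecam1, with 628 and 668 in anti-CD226 libraries against 726 and 620 in isotype libraries. Lung epithelium markers summed to 212 and 227 in anti-CD226 libraries against 201 and 295 in isotype libraries. Among them Sftpc was at 0 in both anti-CD226 libraries and in isotype replicate 1. The part of other cells in the levels of the ER genes was not tested.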

How the data were processed

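Per the labels' protocols, RNA of cultured ILC2s was turned into cDNA from 10 pg of RNA per sample (a unit the label may misstate) with the SMARTer Ultra Low Input kit. Per the submitters' processing notes, the tools were STAR 2.7.8, Partek 10.0 and an unversioned DESeq2, and the genome was mm10. For the counter, the annotation and strandedness, each is not given in the sources used here, and reads of overlapping genes are therefore uncertain. Each gene has, per library, 1 normalised signal value that the authors deposited. Between 73.5% and 75.1% of the values between 0.5 and 1000 reads were whole multiples of a single step per library (tolerance 0.02 of a step), so the signal was read as estimated reads divided by 1 factor per library, depth is an estimate, and no count model was run. With 207 gene columns checked singly, the other gene columns were taken to hold the same quantity. Reads of an amplified library are not independent molecules. The worth of 3 reads, 2.32 to 3.32 normalised reads per library, is the limit below which a 0 says nothing, for counting error only.

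The 13010 genes whose mean reached 10 were tested with limma 3.58.1 under R 4.3.3 on log2(value + 1), using a mean-variance trend, two-sided, with Benjamini-Hochberg adjustment over all of them and no replicate term; the fit has 2 residual and 5.81 prior degrees of freedom. Adding 1 before taking logs makes the differences of genes with few reads too small. An exact permutation test of 2 against 2 libraries cannot give a two-sided p below 0.333. Positions and transcript lengths (the median over a gene's principal transcripts) are from GENCODE M21 on GRCm38, the assembly of mm10, with a length for 97.5% of genes; promoter windows are from RefSeq on GRCm38.p6.

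The members and the gene lists were chosen with earlier results of these data known. Values in every library were to be given for Ern1, Atf6, Xbp1 and, in each role, the member with the highest level per kilobase, the 3 of smallest p and those with the largest rise and fall; of each other list the 3 genes of smallest p with a mean of 50 or more were to be named. Alternatives covered the pseudocount, the filter, 4 scalings, the prior and trend of the variance, the replicate number as a block, the length trend and leaving out each library.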

Additional observations from a re-analysis of the deposited data

How the results depend on the processing

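In each alternative but 1, 0 of the 36 ER genes were called. Without anti-CD226 replicate 1, 5 members were called, so leaving out 1 library gave 0 to 5. The count over all genes was 0 with all libraries and between 12 and 1633 with 1 left out (1633 when anti-CD226 replicate 1 was left out, 53 for anti-CD226 replicate 2, 12 for isotype replicate 1 and 17 for isotype replicate 2); the cause was not tested. With the replicate number as a block 20 genes were called, and with the block and the length trend removed 2, of which 0 were members in both fits. The deviations of same-numbered libraries correlated at -0.24, so the numbers are not shown to pair libraries. With the numbers crossed, an alternative chosen after seeing the data, 61 genes were called, 0 of them members. The pseudocount, the filter, the 4 other scalings, the variance prior and trend and removal of the length trend gave 0 calls, and the members' median log2 difference moved by less than the spread between replicates, to between -0.048 and 0.027 with 1 library left out.

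Of 612 values of members under alternatives, 552 kept their sign and side of the threshold, 5 passed the threshold and 55 changed sign, the last in 27 members. With the length trend removed, with or without the block, the log2 difference was -0.066 for Atf6, 0.012 for Creld2, -0.097 for Dnajc3, -0.013 for Edem1, 0.048 for Herpud1, -0.016 for P4hb, 0.051 for Sdf2l1, -0.11 for Ssr1 and 0.088 for Ssr2. Upper quartile scaling gave -0.014 for P4hb and -0.00073 for Pdia6, and quantile normalization gave -0.018 for P4hb. With 1 library left out at a time the log2 difference ran from -0.12 to 0.36 for Atf6, -0.051 to 0.11 for Calr, -0.084 to 0.081 for Derl1, -0.12 to 0.012 for Dnajb11, -0.22 to 0.28 for Dnajb9, -0.054 to 0.14 for Dnajc3, -0.057 to 0.35 for Edem1, -0.051 to 0.49 for Ern1, -0.051 to 0.047 for Herpud1, -0.22 to 0.20 for Hyou1, -0.22 to 0.13 for Manf, -0.010 to 0.033 for P4hb, -0.13 to 0.045 for Pdia3, -0.045 to 0.096 for Pdia6, -0.25 to 0.064 for Sdf2l1, -0.36 to 0.031 for Sec11a, -0.0038 to 0.37 for Sec61a1, -0.92 to 0.059 for Sec61b, -1.23 to 0.086 for Sec61g, -0.62 to 0.040 for Spcs1, -0.48 to 0.049 for Spcs2, -0.21 to 0.097 for Ssr2, -0.0084 to 0.14 for Ssr3, -0.79 to 0.078 for Ssr4, -0.12 to 0.54 for Syvn1. The causes of these changes of sign were not tested.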
